A study of Mus musculus with 384 samples.

Results

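The genes described here are the sodium-calcium exchangers Slc8a1, Slc8a2 and Slc8a3, the plasma membrane calcium pumps Atp2b1, Atp2b2, Atp2b3 and Atp2b4, and the endoplasmic reticulum calcium pump Atp2a2, 8 of the 32813 genes in the deposited tables. They were selected on the measured level of Slc8a1 in retinal cells that express Sox6, where it was high. For these genes, every comparison that involves Sox6-expressing cells is therefore given below as a description without a test. The cells came from 4 retinas of 2 mice at postnatal day 17 and were sorted by fluorescence into plates, with 96 cells per retina, for full-length single-cell sequencing (Smart-seq2). All the mice carried Cre in the Kcng4 gene (Kcng4tm1.1(cre)Jrs) and the reporter Thy1-stop-YFP Line#1. The labels give no second genotype and no treatment, and the groups compared are kinds of cells within the same retinas. The labels name the retinas 1la and 1Ra for mouse 1, and 2la and 2Ra for mouse 2. Since 1 retina filled 1 plate, retina and plate cannot be told apart. The reporter is driven by Thy1, so only cells in which Cre had acted and Thy1 drove the fluorescent protein could be sampled.

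Calcium enters a neuron through channels and has to be carried out again. Exchangers of the SLC8 family use the sodium gradient to export calcium with low affinity and high capacity, whereas pumps of the ATP2B family use ATP and bind calcium with high affinity. SERCA pumps such as Atp2a2 return calcium to the endoplasmic reticulum, and in retinal bipolar cells, which release glutamate from ribbon synapses, calcium clearance from the terminal helps to set how long release lasts.

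Of 383 cells with values, 321 had at least 3000 genes at an expected count of 1 or more and were kept. Cells with exactly 1 of the genes Sox6, Vsx1 and Ddit4l at 20 TPM or more formed the groups: 151 Sox6-only cells (33, 30, 46 and 42 in retinas 1la, 1Ra, 2la and 2Ra), 60 Vsx1-only cells (16, 18, 14 and 12) and 59 Ddit4l-only cells (10, 19, 20 and 10). TPM is the number of transcripts of a gene relative to all transcripts of the cell, corrected for transcript length and scaled to a fixed total, and is the scale used to compare genes with each other. A further 18 kept cells had 2 or 3 of the markers and 33 had none. Nearest to the threshold, a kept cell with 20.8 TPM of Sox6 was inside and one with 18.7 TPM was outside, and the corresponding values were 31.01 and 15.8 TPM for Vsx1 and 28.96 and 16.9 TPM for Ddit4l. Kept cells held between 203657 and 1945580 counts, with a median of 1065570. Bipolar cell markers were present throughout, with 12, 11 and 11 of 12 at 1 TPM or more in most Sox6-only, Vsx1-only and Ddit4l-only cells. Of 8 ganglion cell markers, 1, 0 and 0 were. That marker was Thy1, at 1 TPM or more in 54.3, 25 and 28.8% of the cells of these groups. Nefl was in 12.6, 21.7 and 13.6% of them. Each other ganglion cell marker reached 1 TPM in at most 5% of the cells of a group. Among these, Pou4f2 reached it in no cell of the groups and Slc17a6 only in 1.69% of Ddit4l-only cells. Rod transcripts were also found in all the groups. The summed TPM of 8 rod markers ranged over retinas between 1140 and 2652 in Sox6-only, between 825 and 3497 in Vsx1-only and between 451 and 1721 in Ddit4l-only cells, and 3, 3 and 1 of the 8 reached 1 TPM in the majority of these cells. The summed TPM of 6 Müller glia markers ranged between 149 and 444, between 174 and 1838 and between 137 and 216 in the same order.

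The results turn on Slc8a1 and Atp2b1, and the regions around their annotated starts differ in base composition. Shown are 300 bases from 250 before to 50 after the start, from RefSeq on GRCm38.p6, whose chromosome coordinates are those of mm10. Windows were found for 6 of the 8 genes, and Atp2b3 and Atp2a2 had none in the table used. The Slc8a1 window lies on the minus strand at chr17:81738338-81738637. The first of 2 Atp2b1 windows lies on the plus strand at chr10:98914392-98914691. Capitals mark the letters ACAAT, the core bound by SOX proteins, on either strand.
Slc8a1: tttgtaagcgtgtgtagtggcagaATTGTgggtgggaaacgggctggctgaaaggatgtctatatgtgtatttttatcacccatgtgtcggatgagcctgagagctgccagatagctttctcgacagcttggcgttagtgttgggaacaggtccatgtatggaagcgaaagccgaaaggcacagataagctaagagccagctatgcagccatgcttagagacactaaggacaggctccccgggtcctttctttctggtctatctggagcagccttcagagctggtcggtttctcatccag
Atp2b1: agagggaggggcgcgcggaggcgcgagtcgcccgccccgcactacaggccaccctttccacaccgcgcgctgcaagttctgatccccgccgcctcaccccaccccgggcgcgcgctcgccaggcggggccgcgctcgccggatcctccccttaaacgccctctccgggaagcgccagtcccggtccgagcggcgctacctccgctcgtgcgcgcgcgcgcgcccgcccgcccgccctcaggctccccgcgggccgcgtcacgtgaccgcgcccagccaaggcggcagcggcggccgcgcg
The Slc8a1 window held 1 such core (read as ATTGT), 1 E-box (CANNTG), no GATTA (the core for OTX and CRX proteins) and no GC box (GGGCGG), all searched on both strands. The Atp2b1 window held 4 GC boxes, 1 E-box and neither ACAAT nor GATTA. Among 32851 windows of the same length, 31.02% held ACAAT, 22% GATTA, 72.3% CANNTG and 35.7% GGGCGG. The Slc8a1 window had a GC content of 50.7% and 9 CpG dinucleotides, close to the medians of 52.7% and 7 over all windows. The Atp2b1 window had a GC content of 79.3%, above 98.7% of all windows, and 54 CpG dinucleotides, more than 99.7% of them.

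Slc8a1 encodes NCX1, the exchanger best known from heart muscle and also found in neurons. It was the most abundant member in Sox6-only cells, and most cells of the other groups held little or none of it. In Sox6-only cells its mean was 411 TPM in retina 1la, 423 TPM in 1Ra, 289 TPM in 2la and 322 TPM in 2Ra. In Vsx1-only cells the means were 10.3, 7.70, 0.309 and 37.9 TPM in the same retinas. In Ddit4l-only cells they were 22.2, 38.01, 35.1 and 67.8 TPM. Every retina's Sox6-only mean lay above every mean of the other groups, while the Vsx1-only and Ddit4l-only means overlapped.

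**Figure D1:**
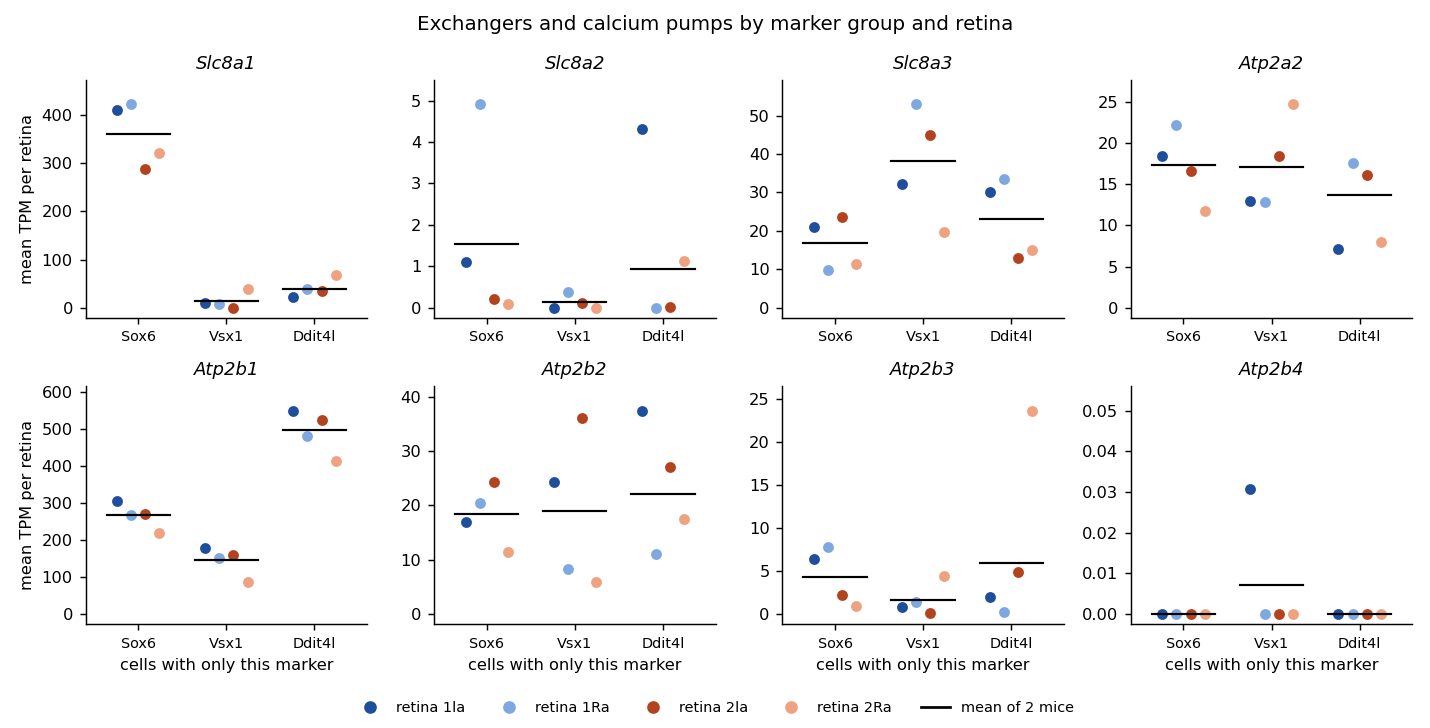
Mean TPM of each of the 8 genes over the Sox6-only, Vsx1-only and Ddit4l-only cells of each retina (points), with the mean of the 2 mice (line); each panel has its own linear scale. Slc8a1 lies between 289 and 423 TPM in Sox6-only cells and at 67.8 TPM or less elsewhere, and Atp2b1 is highest in Ddit4l-only and lowest in Vsx1-only cells in every retina.

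Averaged over mice, Slc8a1 stood at 361 ± 79.4 TPM in Sox6-only, 13.3 ± 6.18 TPM in Vsx1-only and 39.3 ± 9.50 TPM in Ddit4l-only cells (SD, n = 2 mice). In counts summed per mouse and group, the log2 fold change was 4.63 ± 0.47 (SE) for Sox6-only over Vsx1-only cells and 3.27 ± 0.44 for Sox6-only over Ddit4l-only cells. These comparisons are the ones from which the gene was picked. In the first, 4.54% of 16428 genes had all 4 retinas of Sox6-only cells above all 4 of Vsx1-only cells, and in the second 4.29% had all 4 above those of Ddit4l-only cells. Leaving out cells with at least 1000 TPM of summed rod markers moved the first log2 fold change to 7.28 and the second to 3.04.

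The difference lay in how many cells held the transcript as well as in the amount. Of Sox6-only cells, 137 of 151 (90.7%) had Slc8a1 at 20 TPM or more, against 6 of 60 Vsx1-only cells (10%) and 14 of 59 Ddit4l-only cells (23.7%). The median cell held 315 TPM among Sox6-only, 0 TPM among Vsx1-only and 0.69 TPM among Ddit4l-only cells. At least 1 count was found in 94.7% of Sox6-only cells (exact Clopper-Pearson 95% interval 89.8 to 97.7%), 40% of Vsx1-only cells (27.6 to 53.5%) and 67.8% of Ddit4l-only cells (54.4 to 79.4%). With every cell thinned to 200000 counts these shares were 92.7%, 20% and 45.8%. The intervals cover counting error only.

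Of the 6 Vsx1-only cells with Slc8a1 at 20 TPM or more, 5 were rich in rod transcripts, as were 9 of the 24 with at least 1 count. Among Vsx1-only cells, 5 of the 18 with at least 1000 TPM of summed rod markers had Slc8a1 at 20 TPM or more, against 1 of the other 42, and the means were 33.3 and 3.89 TPM. Retina 2Ra, which had the highest Vsx1-only mean, also had the largest share of such cells, 7 of 12. In Ddit4l-only cells the means were 37.2 TPM in the 10 rod-rich cells and 39.8 TPM in the other 49. There, 4 of the 10 rod-rich cells (40%) reached 20 TPM, against 10 of the other 49 (20.4%), and the medians were 3.73 and 0.68 TPM. In Sox6-only cells they were 328 TPM in the 43 rod-rich cells and 361 TPM in the other 108. The mean in Ddit4l-only cells was thus as large without the rod-rich cells, although the share of cells at 20 TPM was lower. In Vsx1-only cells both the mean and that share were lower without them.

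**Figure D2:**
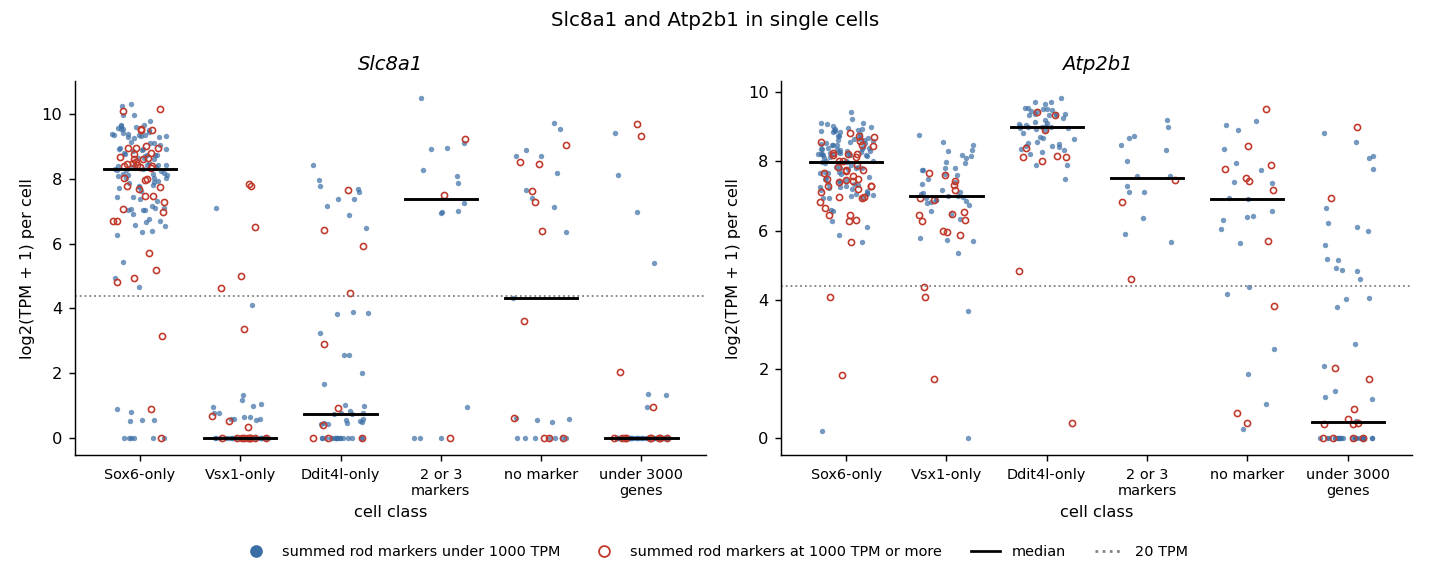
Slc8a1 (left) and Atp2b1 (right) as log2(TPM + 1) in each cell, by cell class; filled points are cells under 1000 TPM of summed rod markers, open points are cells at or above it, black lines are medians and the dotted line is 20 TPM. Slc8a1 splits each class into cells near 0 and cells with high levels, with 137 of 151 Sox6-only cells above the dotted line, while Atp2b1 is above it in 148 of 151 Sox6-only, 55 of 60 Vsx1-only and 58 of 59 Ddit4l-only cells.

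Slc8a1 was also found in cells outside the groups. The 18 cells with 2 or 3 markers had a mean of 289 ± 23.7 TPM of Slc8a1 and the 33 cells with no marker 171 ± 50.1 TPM (SD, n = 2 mice). Among the cells with 2 or 3 markers, the 10 with Sox6 and Ddit4l averaged 434 TPM, the 6 with Sox6 and Vsx1 averaged 121 TPM and the 2 with Vsx1 and Ddit4l averaged 0.485 TPM. Of the 33 cells with no marker, 16 had Slc8a1 at 20 TPM or more. Among those 33, the median was 162 TPM in the 14 cells with some Sox6 below 20 TPM and 0.52 TPM in the 19 cells with no Sox6 read. The means were 204 and 137 TPM. In the same order, the medians were 0 and 0 TPM among Vsx1-only cells and 0.49 and 0.725 TPM among Ddit4l-only cells. Within Sox6-only cells the levels of Slc8a1 and Sox6 were weakly correlated across cells (Pearson r 0.23 for log2(TPM + 1), n = 151 cells that share 4 plates), with values between -0.14 and 0.47 in single retinas.

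Slc8a3, which encodes the exchanger NCX3 of brain and skeletal muscle, had its highest mean in Vsx1-only cells. Its means in retinas 1la, 1Ra, 2la and 2Ra were 20.9, 9.88, 23.6 and 11.4 TPM in Sox6-only cells, 32.1, 52.99, 44.97 and 19.8 TPM in Vsx1-only cells and 30.2, 33.6, 12.9 and 15.04 TPM in Ddit4l-only cells. In TPM the groups overlapped. In CPM, which are counts of the summed cells scaled to a common library size, the Sox6-only sums (13.3 to 42.6 CPM) lay below all Vsx1-only sums (48.6 to 114 CPM), as 3.04% of genes did in that direction. The log2 fold change was -1.28 ± 0.42 (SE) for Sox6-only over Vsx1-only cells. It was at 20 TPM or more in 27 of 151 Sox6-only, 23 of 60 Vsx1-only and 16 of 59 Ddit4l-only cells.

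As a share of the TPM of the 3 exchangers, Slc8a1 made up between 92.4 and 96.6% in the retinas of Sox6-only cells, between 0.68 and 65.7% in those of Vsx1-only cells and between 39.1 and 80.7% in those of Ddit4l-only cells. In Vsx1-only cells Slc8a3 was thus above Slc8a1 in retinas 1la, 1Ra and 2la, and below it in 2Ra. Across Sox6-only cells r between the 2 genes was 0.02 (n = 151 cells).

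Slc8a2, which encodes the brain exchanger NCX2, was near the limit of detection. Its mean was 1.53 ± 1.96 TPM in Sox6-only, 0.134 ± 0.1 TPM in Vsx1-only and 0.94 ± 0.771 TPM in Ddit4l-only cells (SD, n = 2 mice). At least 1 count was found in 8 of 151, 2 of 60 and 5 of 59 cells of these groups, and 2 Sox6-only cells and 1 Ddit4l-only cell reached 20 TPM.

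Atp2b1 encodes PMCA1, the most widely expressed plasma membrane pump. It was found in nearly every cell, and its level, not its presence, differed between the groups. In Sox6-only cells the means were 307, 267, 271 and 220 TPM in retinas 1la, 1Ra, 2la and 2Ra. In Vsx1-only cells they were 178, 152, 161 and 86.6 TPM, and in Ddit4l-only cells 550, 481, 526 and 414 TPM. The order Ddit4l-only, Sox6-only, Vsx1-only held in each retina and no group overlapped another.

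Averaged over mice, Atp2b1 stood at 267 ± 28.8 TPM in Sox6-only, 145 ± 26.5 TPM in Vsx1-only and 497 ± 11.6 TPM in Ddit4l-only cells (SD, n = 2 mice). Beside the highest level of Slc8a1, Sox6-only cells thus had the middle level of this pump. The log2 fold change was 0.89 ± 0.12 (SE) for Sox6-only over Vsx1-only cells and -0.85 ± 0.12 for Sox6-only over Ddit4l-only cells. The second was nearly the same in each retina, at -0.83, -0.76, -0.91 and -0.89 in 1la, 1Ra, 2la and 2Ra. The share of genes with all 4 retinas of one group beyond the 4 of the other was 4.54% for Sox6-only above Vsx1-only cells and 2.33% for Sox6-only below Ddit4l-only cells.

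The rule that selected the genes did not use the difference between Vsx1-only and Ddit4l-only cells. The members and lists were still chosen with earlier results of these data known. Atp2b1 was at 686 ± 113 CPM in Vsx1-only and 2278 ± 57.1 CPM in Ddit4l-only cells (SD, n = 2 mice), and it was lower in Vsx1-only cells in 4 of 4 retinas, with no overlap. The share of genes with all 4 Vsx1-only retinas below the 4 Ddit4l-only ones was 3.4%. The log2 fold change was -1.74 ± 0.12 (SE), with an adjusted p of 0.0853 in edgeR's quasi-likelihood test on sums per mouse, which misses the threshold of 0.05. With a sum for each retina, the log2 fold change was -1.75 ± 0.10 (SE) and edgeR's adjusted p was 0.000155. That fit treats the 2 retinas of a mouse as separate replicates, so its p understates the uncertainty over animals.

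Few genes passed on sums per mouse. There, 4 of 16643 genes (0.024%) were called, all lower in Vsx1-only cells (Epha7, Gsg1, Lrrtm1 and Meis2, named after their values were seen), and 2139 (12.9%) had an unadjusted p under 0.05. With sums per retina 287 of 16428 genes were called, which is 1.75%, and 126 of them (0.767%) were lower in Vsx1-only cells. Of the 8 members, 7 passed the filter on low counts. None was called in edgeR on sums per mouse, where Atp2b1 and Slc8a1 had an unadjusted p under 0.05, and Atp2b1 was called on sums per retina. In DESeq2 on sums per mouse 1763 of the 15152 genes with an adjusted p (11.6%) were called, Atp2b1 and Slc8a1 among them.

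Slc8a1 was lower in Vsx1-only than in Ddit4l-only cells in 4 of 4 retinas, with an unequal size. The CPM sums were 21.1, 15.6, 0.593 and 93.5 in Vsx1-only cells and 44.1, 72.8, 62.7 and 137 in Ddit4l-only cells (retinas 1la, 1Ra, 2la and 2Ra), so the groups overlapped. The log2 fold change was -1.36 ± 0.41 (SE), with an adjusted p of 0.318 in edgeR. Without the rod-rich cells it was -4.24 ± 1.21, with an adjusted p of 0.328. On sums per retina, again without these cells, it was -4.58 ± 0.88 with an adjusted p of 0.0485 in edgeR, an alternative chosen after seeing the data. That fit called 194 of 15424 genes and treats the 2 retinas of a mouse as separate replicates. Without rod-rich cells the Vsx1-only means were near the floor, at 1.88, 9.24, 0.338 and 0.402 TPM in retinas 1la, 1Ra, 2la and 2Ra. Leaving out retina 2Ra moved the value on sums per mouse to -3.41, and leaving out 2la moved it to -0.98.

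**Figure D3:**
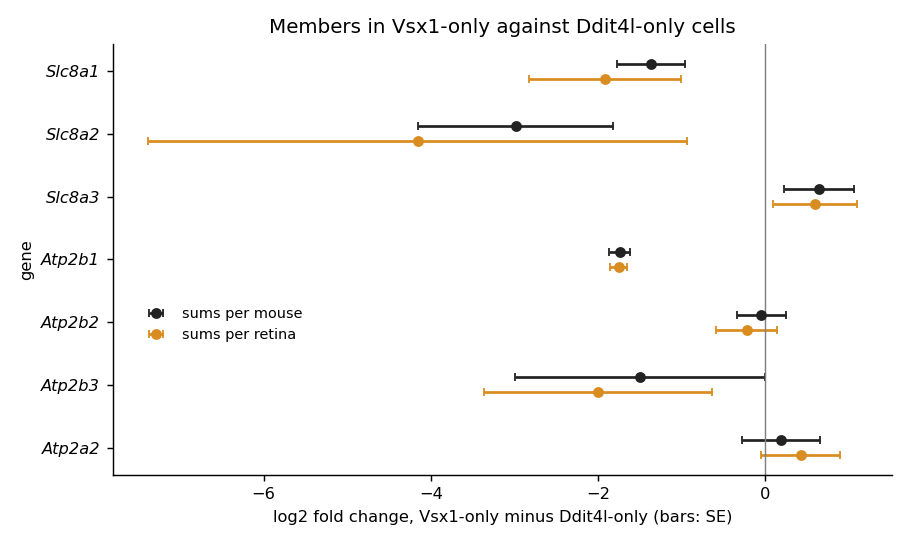
Log2 fold change of the 7 members that passed the filter, Vsx1-only minus Ddit4l-only cells, from edgeR on sums per mouse (black) and per retina (orange), with bars of 1 SE. Atp2b1 has the shortest bars, at -1.74 and -1.75, and Slc8a2 and Atp2b3 the longest.

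The remaining members did not pass in this comparison in edgeR, by sums per mouse or per retina. Slc8a3 had a log2 fold change of 0.64 ± 0.42 (SE; adjusted p 0.601 in edgeR) and was higher in Vsx1-only cells in 3 of 4 retinas. Atp2b2 had -0.05 ± 0.29 and Atp2a2 0.19 ± 0.47, sizes smaller than their errors. Slc8a2 had -2.99 ± 1.17 (adjusted p 0.405 in edgeR) and Atp2b3 -1.495 ± 1.496, each from few cells.

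Atp2b2 encodes PMCA2, a fast pump needed in cochlear hair cells and the cerebellum. Its means were 18.4 ± 0.311 TPM in Sox6-only, 19.01 ± 4.43 TPM in Vsx1-only and 22.1 ± 2.66 TPM in Ddit4l-only cells (SD, n = 2 mice). The retinas of each group spread over 11.5 to 24.3, 5.91 to 36.1 and 11.1 to 37.4 TPM, so the groups overlapped fully. It was at 20 TPM or more in 33 of 151, 16 of 60 and 14 of 59 cells. Atp2a2, the SERCA2 gene, had means of 17.3 ± 4.21, 17.1 ± 5.93 and 13.7 ± 0.437 TPM in the same groups, and reached 20 TPM in 42, 15 and 13 of their cells.

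Atp2b3, which encodes the neuronal pump PMCA3 and lies on chromosome X, was low and uneven. Its means in retinas 1la, 1Ra, 2la and 2Ra were 6.41, 7.79, 2.22 and 0.924 TPM in Sox6-only cells, 0.792, 1.36, 0.145 and 4.42 TPM in Vsx1-only cells and 2.03, 0.204, 4.85 and 23.7 TPM in Ddit4l-only cells. It reached 20 TPM in 7 of 151, 3 of 60 and 5 of 59 cells, so a few cells set each mean. Atp2b4, the gene for PMCA4, had at least 1 count in 1 of 60 Vsx1-only cells. It was found in 0 of 151 Sox6-only cells, with an exact upper limit of 2.41%, and in 0 of 59 Ddit4l-only cells, with an exact upper limit of 6.06%. These limits (Clopper-Pearson, 95%) cover counting error only and concern cells with a count, not cells that express the gene.

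Within the pump family Atp2b1 therefore made up most of the transcript in every group. Its share of the summed TPM of Atp2b1 to Atp2b4 ranged over retinas between 90.4 and 94.7% in Sox6-only, between 81.6 and 93.97% in Vsx1-only and between 90.9 and 97.7% in Ddit4l-only cells. Members were only loosely related from cell to cell. In Sox6-only cells r between Slc8a1 and Atp2b1 was 0.21 (n = 151 cells) and lay between 0.06 and 0.28 in single retinas, and in Vsx1-only and Ddit4l-only cells it was 0.04 (n = 60) and -0.14 (n = 59).

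The genes most like Slc8a1 were ranked by Pearson's r of log2(CPM + 1) over the 12 sums per retina and group, among 7120 genes with a mean of at least 20 CPM. They were Gfod1 (r 0.91), Gckr (0.91), Nfib (0.91), Ifitm10 (0.89) and Ptprt (0.89). Gckr encodes the glucokinase regulatory protein of liver, Nfib a transcription factor and Ptprt a receptor tyrosine phosphatase. Ptprt averaged 198 CPM in Sox6-only, 3.91 CPM in Vsx1-only and 6.87 CPM in Ddit4l-only cells. Among the other members, r with Slc8a1 ranged between -0.78 for Slc8a3 and 0.57 for Atp2b3.

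The genes most like Atp2b1 were Lrrtm1 (r 0.97), Ptgds (0.95), Pcdh7 (0.95), Gsto1 (0.94) and Mycn (0.94). Lrrtm1, a synaptic adhesion protein, was at 83.5 CPM in Sox6-only, 1.11 CPM in Vsx1-only and 1145 CPM in Ddit4l-only cells, in the same order as Atp2b1 with a wider range. Slc8a2, by the same rule, was most like Vdac2 (0.89), Morn4 (0.88), Josd2 (0.85), Rhbdd2 (0.84) and Zfp316 (0.84), at a level of Slc8a2 that few cells set. The 12 sums are 3 groups of the same 4 retinas, and these values describe likeness only.

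Other genes of calcium handling were taken from a list of 46, all present in the tables, of which 41 passed the filter. Between Vsx1-only and Ddit4l-only cells none was called in edgeR on sums per mouse, where 12 of the 41 had an unadjusted p under 0.05, beside 12.9% of all genes tested. On sums per retina 2 were called higher in Vsx1-only cells and 1 lower, beside 0.98% and 0.767% of all genes. The median log2 fold change of the 41 genes on sums per mouse was -0.11, against 0.01 over all genes tested. By role it was 0.77 for 9 other exchangers and pumps, 0.39 for 7 accessory subunits and regulators, -0.18 for 9 genes of mitochondrial uptake, 0.17 for 10 of release and store refill and -1.97 for 6 of the sodium pump.

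Slc24a4, which encodes the potassium-dependent exchanger NCKX4, was called higher in Vsx1-only cells. Its means in retinas 1la, 1Ra, 2la and 2Ra were 39.8, 38.4, 25.2 and 34.4 TPM in Vsx1-only cells and 0.181, 0.0563, 0.289 and 0.083 TPM in Ddit4l-only cells. It reached 20 TPM in 18 of 60 Vsx1-only and 0 of 59 Ddit4l-only cells, with 28 counts in all of the last. The log2 fold change on sums per retina was 7.37 ± 0.72 (SE; adjusted p 0.00204 in edgeR), and on sums per mouse 7.23 ± 0.84 (adjusted p 0.121). Sox6-only cells lay between, with 4.24, 12.1, 22.7 and 24.4 TPM.

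Ryr2, a ryanodine receptor that releases calcium from the endoplasmic reticulum, was also called higher. Its means were 29.5, 27.2, 22.1 and 20.5 TPM in Vsx1-only and 7.80, 12.5, 10.1 and 9.02 TPM in Ddit4l-only cells, without overlap (as for 4.27% of genes in this direction in CPM). The log2 fold change on sums per retina was 1.42 ± 0.23 (SE, adjusted p 0.0227 in edgeR, and 0.151 on sums per mouse). Sox6-only cells, given without a test, had 35.7, 36.1, 39.7 and 16.1 TPM, so Ryr2 was lowest in Ddit4l-only cells rather than highest in Vsx1-only cells. Ryr3, another ryanodine receptor named after its values were seen, went the other way, at 51.7 CPM in Vsx1-only and 150 CPM in Ddit4l-only cells. Its log2 fold change was -1.75 ± 0.42 on sums per retina (SE, adjusted p 0.0871 in edgeR), so it was not called. Atp1b1, a beta subunit of the sodium pump, was called lower on sums per retina (adjusted p 0.0379 in edgeR, and 0.195 on sums per mouse). It held 3 counts in all Vsx1-only cells and 1832 in Ddit4l-only cells, a ratio per total count of 0.00165 (exact 95% interval 0.000339 to 0.00482, counting error only). Only 4 of 59 Ddit4l-only cells reached 20 TPM, and without the rod-rich cells the Ddit4l-only mean was 0.311 TPM. Atp1b2, another beta subunit, named after its values were seen, was at 1579 ± 98.7 TPM in Sox6-only, 1594 ± 76.6 TPM in Vsx1-only and 1084 ± 38.4 TPM in Ddit4l-only cells (SD, n = 2 mice).

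Slc24a2 and Slc24a3, further NCKX genes named after their values were seen, had their highest means in Sox6-only cells and are given without a test. Slc24a2 averaged 51.98 ± 9.04 TPM in Sox6-only, 0.0296 ± 0.0277 TPM in Vsx1-only and 8.12 ± 6.41 TPM in Ddit4l-only cells (SD, n = 2 mice). It reached 20 TPM in 57 of 151, 0 of 60 and 3 of 59 cells. Slc24a3 averaged 94.6 ± 30.4, 18.1 ± 4.99 and 42.3 ± 6.68 TPM in these groups. Every Sox6-only retina (72.3 to 121 TPM) was above every retina of the other groups. In CPM, 4.54% of genes had all 4 Sox6-only retinas above the 4 Vsx1-only ones, and 4.29% above the 4 Ddit4l-only ones. Slc24a1, the exchanger of rod outer segments, was at 19.3, 23.5 and 17.5 TPM, and at 2.56, 0.0969 and 2.31 TPM in the cells that were not rod-rich. Slc24a5, another gene of the family, averaged 9.96 ± 2.08 TPM in Sox6-only, 8.88 ± 2.73 TPM in Vsx1-only and 5.65 ± 4.96 TPM in Ddit4l-only cells (SD, n = 2 mice), which is within the spread between mice.

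**Figure D4:**
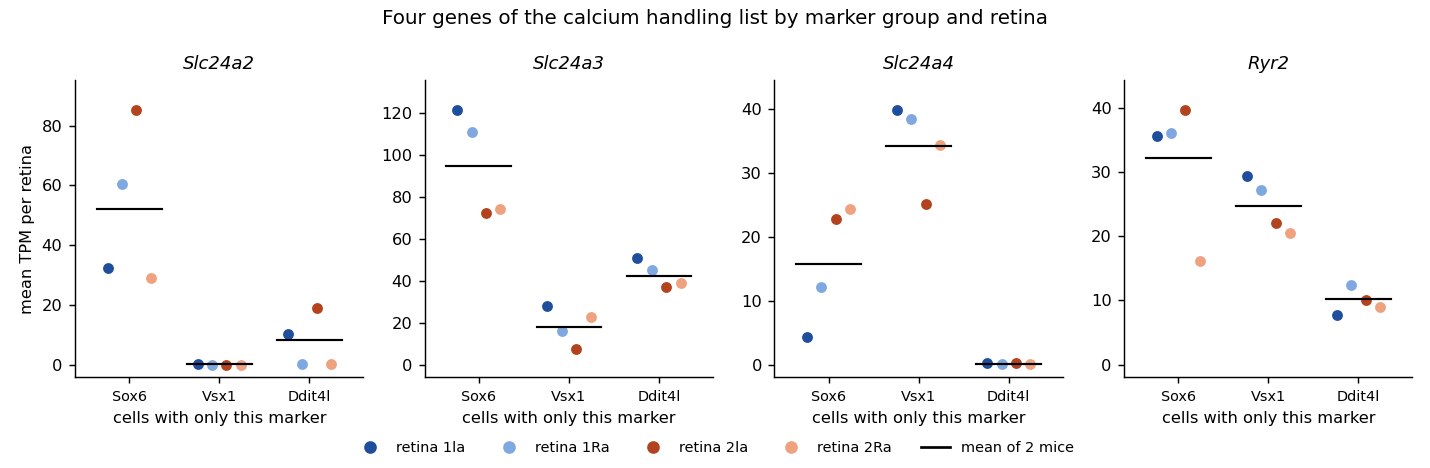
Mean TPM of Slc24a2, Slc24a3, Slc24a4 and Ryr2 over the Sox6-only, Vsx1-only and Ddit4l-only cells of each retina (points), with the mean of the 2 mice (line), on linear scales. Slc24a3 is highest in Sox6-only cells in every retina, Slc24a4 is highest in Vsx1-only cells and at 0.289 TPM or less in Ddit4l-only cells, and Ryr2 is lowest in Ddit4l-only cells.

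Bsg and Nptn encode related membrane proteins, and both were listed here among accessory subunits and regulators. Neuroplastin (Nptn) is known as a subunit of the plasma membrane calcium pumps. Bsg averaged 1496 ± 91.4 TPM in Sox6-only, 928 ± 180 TPM in Vsx1-only and 779 ± 34.3 TPM in Ddit4l-only cells, and Nptn 50.5 ± 9.46, 79.6 ± 25.7 and 44.1 ± 4.74 TPM (SD, n = 2 mice). Between Vsx1-only and Ddit4l-only cells their log2 fold changes were 0.18 ± 0.17 for Bsg and 0.70 ± 0.48 for Nptn (SE), with adjusted p of 0.726 and 0.628 in edgeR. Neither followed the order of Atp2b1, which was highest in Ddit4l-only cells.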

How the data were processed

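The tools were RSEM 1.2.28 and TopHat2 2.0.10 with the build mm10, per the submitters' processing notes. The annotation is not given in the sources used here. The authors deposited RSEM expected counts, which are estimated and not normalised, and TPM, in which every cell has the same total. Of 384 cells, 383 had values, and 1 of retina 1la was not analysed here.

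Expected counts were rounded, summed per mouse and marker group (6 sums) and tested with edgeR 4.0.16 (quasi-likelihood, TMM, filterByExpr; R 4.3.3, limma 3.58.1, DESeq2 1.42.0), with the mouse as a block, since all groups of a mouse come from that animal. A call is a Benjamini-Hochberg adjusted p under 0.05 over all genes tested and a log2 fold change of 1 or more in either direction. Sox6, Vsx1 and Ddit4l were left out of all counts. SE was the log2 fold change over the root of F. CPM used TMM-scaled library sizes. Between kept cells the highest correlation of log counts was 0.77, so none was a copy of another.

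All members were named, with the list genes called on sums per mouse or, since none was, on sums per retina (a choice made after seeing the data), Nptn, Bsg and the 5 most alike genes for 3 members. The members and lists were chosen with earlier results of these data known. 1 gene of the list is not reported here.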

Additional observations from a re-analysis of the deposited data

Results flagged for a closer look

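Atp2b4 had a mean of 0.0306 TPM in the Vsx1-only cells of retina 1la and 0 TPM in the other retinas, so the highest retina stood apart from the rest of its group. It rests on 1 cell. With a count in only 1 cell, the other retinas hold 0 and the rule flags the remaining one whatever its level.

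Atp2b3 differed between the mice in its contrast of Sox6-only with Ddit4l-only cells. The log2 difference in CPM was 2.48 in mouse 1 and -2.33 in mouse 2, 4.81 apart, with both retinas of mouse 1 positive and both of mouse 2 negative. Atp2a2 differed likewise between Sox6-only and Vsx1-only cells, with 0.76 in mouse 1 and -0.62 in mouse 2, 1.39 apart. Both were picked by this pattern of signs from all members and all contrasts between 2 groups, and neither difference was tested.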

How the results depend on the processing

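Between Vsx1-only and Ddit4l-only cells, 4 genes were called on sums per mouse, 287 on sums per retina, 50 without the replicate block, 1763 by DESeq2, 699 by limma on mean log2(TPM + 1), 0 without rod-rich cells and 0 to 8 leaving out single retinas. Leaving out single retinas from sums per retina gave 60 to 124. Between Sox6-only and Vsx1-only cells, 0 genes were called on sums per mouse (1427 at an unadjusted p under 0.05), 108 per retina (14 to 64 leaving out single retinas), 13 without the replicate block, 975 by DESeq2, 376 by limma, 3 without the filter on low counts and 1 with markers at 50 TPM. Between Sox6-only and Ddit4l-only cells, 0 were called per mouse (1339 at an unadjusted p under 0.05), 62 per retina (6 to 16 leaving out single retinas, 114 without the replicate block), 867 by DESeq2 and 187 by limma. For Sox6-only cells against the mean of the others, the counts were 0 per mouse (1281 at an unadjusted p under 0.05), 61 per retina (0 to 17 leaving out single retinas, 115 without the replicate block), 699 by DESeq2 and 175 by limma. The cause of these spreads was not tested.

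Of the member fold changes between Vsx1-only and Ddit4l-only cells under the alternatives, 94 kept direction and side of the threshold, 5 came to pass it and 6 changed sign. Atp2b1 passed per retina, without the replicate block (adjusted p 0.0427 in edgeR), by DESeq2 (8.62e-09) and by limma (0.0083), and over these alternatives its log2 fold change ranged from -2.01 to -1.65. Slc8a1 passed by DESeq2 (0.0348). Atp2b2 turned to 0.0141 with markers at 50 TPM, 0.0586 without rod-rich cells and 0.24 by limma, and ranged from -0.43 to 0.15 (the last without retina 2Ra) leaving out single retinas. Atp2a2 ranged from -0.0876 (without 2Ra) to 0.75, and was -0.0633 without 1la. None of these was called. On sums per retina, alternatives chosen after seeing the data, Atp2b1 was called leaving out each retina (adjusted p 0.003 to 0.0087 in edgeR). With the mouse as a block, p-values on sums per mouse rest on how far the group differences vary between only 2 mice. Detection of the low members depends on depth: 9 shares of cells moved when cells were thinned and 15 did not.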

Other observations

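The 62 wells under 3000 genes, which are in no comparison above, held few of these transcripts. Atp2b1 was at 20 TPM or more in 18 of them, Slc8a1 in 6, Atp2a2 in 4, and Slc8a2, Slc8a3 and Atp2b2 in 1 each, while Atp2b3 and Atp2b4 had no count. The highest Slc8a1 level among them was 816 TPM.

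Atp2b1 was lower in the Ra retina than in the la retina of the same mouse in 6 of 6 pairs of group and mouse, by -0.16 to -0.62 in log2 CPM, which is smaller than the differences between groups. Atp2b2 was lower in 5 of 6 and Slc8a1 higher in 5 of 6. These 6 pairs come from the retinas of only 2 mice, each counted in 3 groups of cells. The share of all genes with such a pattern was not counted, so it is not known whether these members are unusual. The Ra retinas also had more mitochondrial counts, with medians in Sox6-only cells of 4.23 and 4.97% in 1Ra and 2Ra against 1.97 and 2.13% in 1la and 2la. Median counts per Sox6-only cell were lower in the Ra retinas, at 747269 and 1000630 in 1Ra and 2Ra against 1304980 and 1193940 in 1la and 2la. The part of these differences in the members' values was not tested.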
